A study of Mus musculus with 4 samples.

Results

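The genes described here are Trp53, its inhibitor Mdm2, 7 genes that p53 controls or that hold back the cell cycle at its G1 step, and the retinoblastoma gene Rb1. They are 10 of the 55573 genes in the deposited table and were chosen by name: Trp53, Mdm2, Cdkn1a, Cdkn1b, Cdkn1c, Cdkn2a, Cdkn2b, Cdkn2c, Ccng1 and Rb1. All 10 were found in the table, with coordinates equal to those of GENCODE M21 on mouse build GRCm38.

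Ribosome-protected RNA fragments were sequenced from primary myoblasts, muscle precursor cells isolated by digestion of the hind limbs, taken on day 2 of proliferation in medium with serum and FGF. There were 2 WT libraries and 2 libraries labelled eIF5A knockout (KO), and the study took the cells from 3-week-old mice, the knockouts after tamoxifen. Cells were treated with cycloheximide, which holds ribosomes in place, before lysis, for a time on which the sources differ. Its knockout mice carry floxed eIF5A and a tamoxifen-inducible Cre under the Pax7 promoter (Pax7 CreERT2/+;eIF5A f/f), which deletes the gene only in cells that express Pax7, so that other cell types in a culture keep it. The control genotype is given in one place as Pax7 CreERT2/+ and in another as Pax7 +/+;eIF5A f/f, and the labels of these 4 libraries say only WT. The study calls its Ribo-seq duplicate experiments but does not say whether the libraries of a group came from separate mice or cultures, so the p-values measure the spread between libraries, which may be technical. The sample titles speak of Polysome-Seq, whereas the protocol describes digestion with RNase I and protected fragments. Matched RNA libraries were not used here, so mRNA amount and translation cannot be told apart in the signal.

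In textbook accounts, p53 is a transcription factor that accumulates after DNA damage and other stress. It switches on Cdkn1a, which stops the cyclin-dependent kinases (CDKs), and Mdm2, whose product in turn marks p53 for degradation. The CDK inhibitors form 2 families. The Cip/Kip proteins, from Cdkn1a (p21), Cdkn1b (p27) and Cdkn1c (p57), bind cyclin-CDK complexes, and the INK4 proteins, from Cdkn2a to Cdkn2d, bind CDK4 and CDK6 alone. Both keep the retinoblastoma protein in the form that holds back E2F. In muscle, p21 and p57 are known for the exit from the cell cycle when myoblasts differentiate.

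The libraries held between 642429 and 704006 reads recovered from the deposited RPKM values (reads scaled to the gene length in kilobases and to the library size that the authors used). Protein-coding genes took 41.5% and 33.9% of the reads in WT but 65.4% and 59.2% in the KO-labelled libraries, and the part of this share in the differences given here was not tested. The targeted gene, Eif5a, had 34.9 and 65.2 RPKM in WT and 60.3 and 59.4 RPKM in the KO-labelled libraries, with a log2 difference of 0.32 (standard error 0.48, adjusted p 0.839 by limma). Eif5a thus showed no fall in the KO-labelled libraries, whose values lay between those of WT. The study checked its knockout in satellite cells by RT-qPCR and immunostaining. Because of the Eif5a values, the group is called by its label here, and every direction is that of the KO-labelled libraries relative to WT. Of the markers of other cells in a muscle digest, the summed signal of 10 fibroblast genes was 320 to 514 RPKM in WT and 397 to 879 RPKM in the KO-labelled libraries, that of 6 endothelial genes 107 to 117 and 124 to 150, and that of 6 immune genes 34.3 to 47.7 and 43.9 to 52.7. The differences were above 0 for 7 of 10 fibroblast and 6 of 6 endothelial genes and for 2 of the 3 immune genes that could be tested, and the immune marker Itgam was at 0 throughout. The sum of 8 myoblast genes, Myod1, Pax7 and Des among them, was between 199.6 and 339 RPKM in WT and between 98.4 and 120.5 RPKM in the KO-labelled libraries, with 8 of 8 differences below 0. The part of these other cells in the results was not tested. In bulk libraries such as these, fewer cells of a type and less RNA per cell cannot be told apart.

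eIF5A is known to help ribosomes through runs of prolines, so the coding sequences of the 10 genes were searched for runs of proline codons (CCN). Of 21478 protein-coding genes with a complete coding sequence, 20.1% had a run of 3 or more. Among the 10 genes, Rb1 and Cdkn1c did. Rb1 has 9 proline codons in a row, codons 14 to 22 of 921, in its exon 1. Cdkn1c has a single run of 3, codons 110 to 112 of 348, and proline makes up 13.5% of its codons, the highest share of the 10. The longest run was 2 codons in Trp53, Mdm2, Cdkn1b and Cdkn2a, and the other 4 genes had no adjacent prolines. The stretches around the runs of Rb1 and Cdkn1c are printed because they are the sites at which ribosomes would meet consecutive prolines, and the stretch of Cdkn1b is printed as a gene with pairs but no longer run. Capitals mark the runs of the gene's greatest length, and each stretch begins and ends at a codon boundary on the coding strand.
Rb1-201: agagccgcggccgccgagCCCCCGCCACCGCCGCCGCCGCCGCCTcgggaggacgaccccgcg
Cdkn1c-202: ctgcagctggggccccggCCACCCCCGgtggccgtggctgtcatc
Cdkn1b-201: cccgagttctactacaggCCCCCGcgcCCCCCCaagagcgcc
They lie at chr14:73325558-73325620 (minus strand, exon 1), chr7:143460354-143460398 (minus strand, exon 2) and chr6:134921172-134921213 (plus strand, exon 1) of GRCm38. The Cdkn1b stretch covers codons 85 to 98, with 1 pair at codons 91 and 92 and another at codons 94 and 95.

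**Figure D1:**
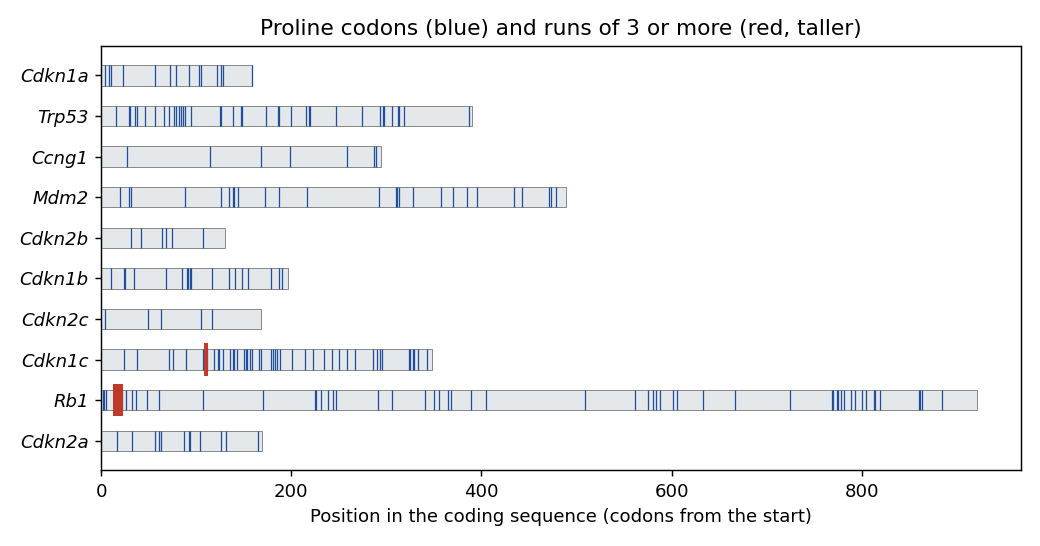
Coding sequence of each of the 10 genes, drawn to scale in codons (horizontal axis), with each proline codon as a blue line and runs of 3 or more as taller red lines. Rb1 holds the run of 9 close to its start, Cdkn1c the run of 3, and the other 8 genes have none.

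The signal of these genes in WT cells spanned from near the detection limit to the top of the range. Cdkn1a, which codes for the CDK inhibitor p21, was by far the most strongly read, at 142 and 116 RPKM in the WT libraries, a mean of 129 ± 18.3 RPKM (SD, n = 2). Of the tested protein-coding genes, 99.0% had a lower mean in WT. Trp53 itself followed at 21.4 ± 5.34 RPKM (SD, n = 2), then Ccng1 at 18.6 ± 2.40 RPKM and Mdm2 at 12.95 ± 0.603 RPKM (SD, n = 2 each). Cdkn1a was above Trp53, Ccng1 above Mdm2 and Mdm2 above Cdkn2b in every WT library, whereas Trp53 and Ccng1 overlapped. From Cdkn2b downwards each gene overlapped the next in the order, with means of 7.56 (Cdkn2b), 6.60 (Cdkn1b), 4.79 (Cdkn2c), 3.77 (Cdkn1c), 3.71 (Rb1) and 1.81 RPKM (Cdkn2a).

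These levels are per kilobase of all exons, while ribosomes cover mainly the coding sequence. The coding part is 13.4% of the length used for Cdkn1a, but 45.9% for Rb1 and 51.2% for Cdkn1c. Dividing the same reads by the coding length, a measure chosen after the data were seen, kept Cdkn1a first at 964 ± 136 (SD, n = 2) on the scale of RPKM and Cdkn2a last at 4.19 ± 5.92. Cdkn1b moved above Mdm2 and Cdkn2b, at 50.9 ± 31.3, and Trp53 and Ccng1 were side by side at 74.0 and 74.1 on that scale.

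**Figure D2:**
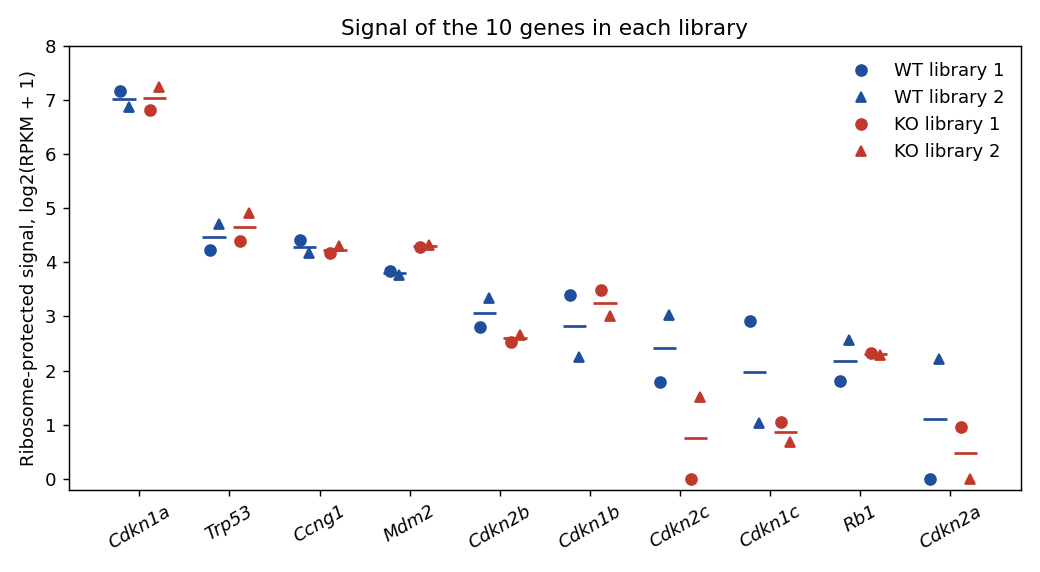
Ribosome-protected signal of the 10 genes, as log2(RPKM + 1), in each of the 4 libraries, ordered by the WT mean. Blue marks are WT and red marks are KO-labelled libraries, circles and triangles are libraries 1 and 2, and bars are group means. Cdkn1a stands above all others in each library, and Mdm2, Cdkn2b and Cdkn2c are the genes whose groups do not overlap.

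The KO-labelled libraries were then compared with WT. None of the 10 genes changed at an adjusted p under 0.05 by limma on log2(RPKM + 1), where 0.0968% of the 11363 tested genes were lower and 0.0088% higher. All 10 passed the filter of a mean of 1 RPKM over the 4 libraries, but Cdkn1c and Cdkn2c had means under 1 RPKM in the KO-labelled libraries. They passed through their level in WT, where they were higher. Cdkn2a passed through 2 reads in WT library 2 and is given no direction. On simulated data this fit called few of the genes that had been changed, so a gene that was not called is not shown to be unchanged. At an unadjusted p under 0.05 the count was also 0 of 10, against 4.46% of all tested genes lower and 2.86% higher. By limma-voom on the recovered reads, which took the 7 genes with at least 20 reads, 0 of 7 passed with adjustment and 0 of 7 without, where 0.425% of 9179 genes were lower and 0.0% higher with adjustment, and 6.66% and 3.48% without. Limma on the genes with at least 20 reads also called 0 of 7 both ways, against 0.0% of 8962 genes with adjustment and 5.52% lower and 4.04% higher without. Over the 9 genes with more than 3 reads in a group (all but Cdkn2a), the differences were above 0 for 5 and below 0 for 4, with a median of 0.02, beside 0.00026 for all tested genes. The RPKM values of the groups did not overlap for 3 of the 10, against 40.4% of all tested genes, with 1 of the 3 higher (20.1% of all) and 2 lower (20.3%) in the KO-labelled libraries.

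Trp53 (ENSMUSG00000059552, on the plus strand of chromosome 11 from 69580359 to 69591873, with 11 exons and its coding sequence from 69586891 to 69591428) codes for p53. Its signal was 17.6 and 25.2 RPKM in WT (43 and 48 reads) and 19.9 and 29.1 RPKM in the KO-labelled libraries (73 and 95 reads). The values interleaved. The log2 difference was 0.18 with a standard error of 0.43, and its 95% interval by limma, from -0.89 to 1.25, leaves room for a change of either sign. Trp53 lies 324840 bases from Eif5a, the floxed gene, on the same chromosome.

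Mdm2 (ENSMUSG00000020184, on the minus strand of chromosome 10 from 117688875 to 117710758, with 12 exons and its coding sequence from 117690213 to 117709780), the ubiquitin ligase that inhibits p53, had 13.4 and 12.5 RPKM in WT (41 and 30 reads) and 18.4 and 19.0 RPKM in the KO-labelled libraries (85 and 78 reads). Both KO-labelled libraries were above both WT libraries, and the spread within each group was small. The log2 difference was 0.50 (standard error 0.37, adjusted p 0.711, 95% interval -0.41 to 1.41 by limma), so that the difference did not pass. Over summed reads the signal was 1.44 times that of WT, with an exact 95% interval of 1.08 to 1.93 that covers counting error only. Leaving out any library kept it between 0.46 and 0.54, and a fit without its dependence on coding GC gave 0.27.

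Ccng1 (ENSMUSG00000020326, on the minus strand of chromosome 11 from 40748552 to 40755311, with 6 exons), a cyclin gene that p53 switches on, had 20.3 and 16.9 RPKM in WT (43 and 28 reads) and 16.95 and 18.7 RPKM in the KO-labelled libraries (54 and 53 reads). The values of the groups interleaved here too. The log2 difference was -0.06 (standard error 0.38, adjusted p 0.971 by limma), and over summed reads the ratio was 0.944, with a counting interval of 0.693 to 1.29.

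Cdkn1a (ENSMUSG00000023067, on the plus strand of chromosome 17 from 29090976 to 29100727, with 3 exons and its coding sequence from 29098408 to 29099390) is the best measured of the genes, with 1296 reads. Its signal was 142 and 116 RPKM in WT (305 and 195 reads) and 112 and 151 RPKM in the KO-labelled libraries (362 and 434 reads), so that the 2 WT values lay between those of the KO-labelled libraries. The log2 difference was 0.02 (standard error 0.47, adjusted p 0.994 by limma). The 95% interval, not adjusted for the number of genes, ran from -1.14 to 1.18 and leaves room for a change of either sign. To be called with adjustment, a change would have to be larger than that. Over summed reads the ratio was 0.997, with a counting interval of 0.891 to 1.12.

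Cdkn1b (ENSMUSG00000003031, on the plus strand of chromosome 6 from 134920401 to 134925513, with 3 exons) codes for p27, the inhibitor held high in quiescent cells. It had 9.47 and 3.73 RPKM in WT (26 and 8 reads) and 10.2 and 7.07 RPKM in the KO-labelled libraries (42 and 26 reads). WT library 2 was the low one, and without it the log2 difference of 0.43 (standard error 0.51, adjusted p 0.786 by limma) was -0.14. Cdkn1c (ENSMUSG00000037664, on the minus strand of chromosome 7 from 143458339 to 143461050, with 4 exons), which codes for p57, had 6.51 and 1.04 RPKM in WT from 8 reads and 1 read, and 1.08 and 0.607 RPKM in the KO-labelled libraries from 2 reads and 1 read. WT library 1 carried the signal of Cdkn1c. Its log2 difference was -1.10 (standard error 0.74, adjusted p 0.697 by limma) and became -0.16 without that library and -2.04 without WT library 2. Over summed reads, 9 in WT and 3 in the KO-labelled libraries, the ratio was 0.209, with a counting interval of 0.0364 to 0.837. Cdkn1c had passed the filter through its level in WT, so this interval is not read as support for a difference.

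The INK4 genes had few reads. Cdkn2b (ENSMUSG00000073802, on the minus strand of chromosome 4 from 89306299 to 89311039, with 2 exons), the gene of p15, had 5.97 and 9.16 RPKM in WT (5 and 6 reads) and 4.76 and 5.34 RPKM in the KO-labelled libraries (6 and 6 reads). The groups of Cdkn2b did not overlap in RPKM, although the reads were almost the same in number, and the library sizes behind the RPKM were 602863 and 471136 for WT but 906990 and 807705 for the KO-labelled libraries. Its log2 difference was -0.48 (standard error 0.39, adjusted p 0.721 by limma), and it ranged from -0.20 without WT library 2 to -0.75 without WT library 1.

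Cdkn2c (ENSMUSG00000028551, on the minus strand of chromosome 4 from 109660876 to 109667189, with 2 exons), the gene of p18, had 2.47 and 7.11 RPKM in WT (4 and 9 reads) and 0 and 1.84 RPKM in the KO-labelled libraries (0 and 4 reads). Both KO-labelled libraries were below both WT libraries. Its log2 difference, -1.65 with a standard error of 0.72, was the largest of the 10 in size and had the smallest unadjusted p, 0.0627, with an adjusted p of 0.675 by limma. It ranged from -0.90 without KO library 1 to -2.41 without KO library 2. Over summed reads, 13 in WT and 4 in the KO-labelled libraries, the ratio was 0.193, with a counting interval of 0.0458 to 0.624. Cdkn2c had passed the filter through its level in WT, where it was higher. Its p and this interval are thus not read as support for a difference. Cdkn2a (ENSMUSG00000044303, on the minus strand of chromosome 4 from 89274471 to 89294653, with 3 exons), which lies 11645 bases from Cdkn2b, codes for the INK4a and ARF proteins, each with a first exon of its own and with later exons read in different frames. It had 3 reads in all: 0 and 2 in WT and 1 and 0 in the KO-labelled libraries. Its signal was at or under the limit of 3 reads over a group, and no fold is given. The table gives 1 value for the gene, so the INK4a and ARF products were not separated, and its prolines and GC were taken from 1 transcript (Cdkn2a-202) and thus from 1 of the frames.

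The remaining INK4 gene, Cdkn2d, was on the list of related genes. It had 5.27 and 4.05 RPKM in WT (5 and 3 reads) and no read in either KO-labelled library. Its WT mean was 4.19 times the value of a limit of 3 reads over the KO-labelled group. This figure leaves out the counting error of the 8 reads in WT. Its unadjusted p was 0.00433 and its adjusted p 0.538 by limma, so the difference did not pass. It had entered the test through its level in WT alone, and its values of 0 in both KO-labelled libraries have no spread, so its p is not read as support for a difference. Summed over the 4 INK4 genes, a sum taken after their values were seen and not tested, WT had 14 and 20 reads against 7 and 10 in the KO-labelled libraries, or 13.7 and 23.9 RPKM against 5.70 and 7.19 RPKM.

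Rb1 (ENSMUSG00000022105, on the minus strand of chromosome 14 from 73183673 to 73325822, with 27 exons and its coding sequence from 73197214 to 73325641), the protein on which CDK inhibitors act through CDK4 and CDK6, had 2.48 and 4.94 RPKM in WT (9 and 14 reads) and 4.03 and 3.91 RPKM in the KO-labelled libraries (22 and 19 reads). The values of the KO-labelled libraries lay between those of WT. The log2 difference was 0.13 (standard error 0.42, adjusted p 0.933, 95% interval -0.91 to 1.17 by limma). For the gene with the run of 9 prolines printed above, the test thus called no difference over the whole gene, and the sign of the value depended on the treatment of GC. The table gives 1 value per gene, and where reads lay along Rb1 was not analysed here. Lpar6 and Rcbtb2, on the other strand, overlap the Rb1 locus and had 99 and 60 reads, and whether strand was used in counting is not given in the sources used here.

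**Figure D3:**
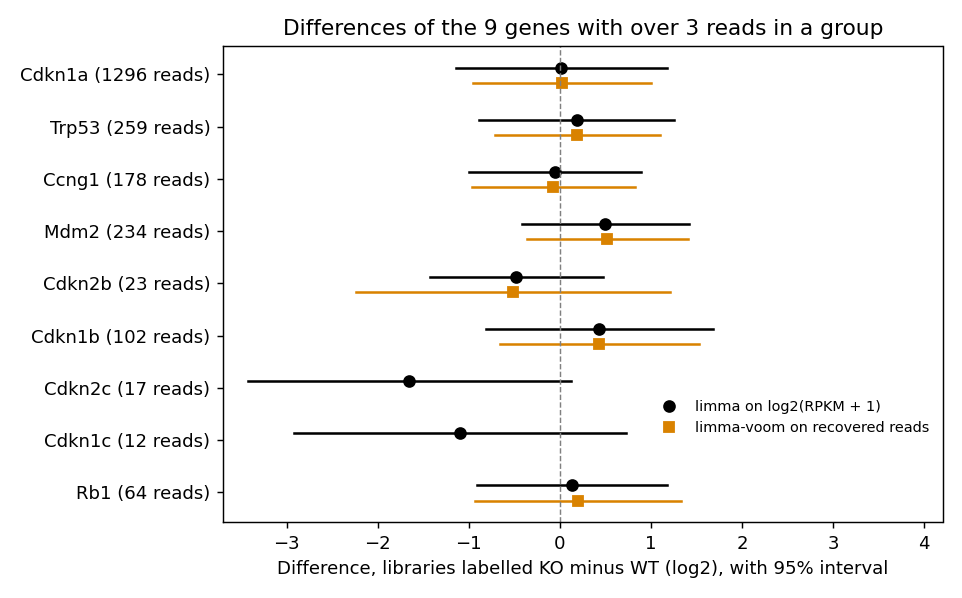
Difference between the KO-labelled libraries and WT for each of the 9 genes with more than 3 reads in a group (log2, horizontal axis) with its 95% interval, in the order of the levels, with the reads over the 4 libraries beside each name. Black circles are limma on log2(RPKM + 1) and orange squares limma-voom for the 7 genes with at least 20 reads. Each interval crosses 0, and among the circles those of Cdkn2c and Cdkn1c, with 17 and 12 reads, are the widest. Cdkn2a, with 3 reads, is not drawn.

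The coding sequences of the 10 genes ran from 41.8% GC (Rb1) to 68.8% GC (Cdkn1c), with a median of 51.9% over protein-coding genes. Removing the trend of the difference on coding GC brought Cdkn1c from -1.10 to -0.52 and Cdkn2b, at 67.9% GC, from -0.48 to 0.082. It took Cdkn1a, at 61.8% GC, from 0.02 to 0.42 and Ccng1, at 43.4% GC, from -0.06 to -0.41. Rb1 turned from 0.13 to -0.25 (standard error 0.44). Cdkn2c, at 51.8% GC, moved little, to -1.79. Adjusted p by limma in that fit was between 0.723 and 0.976 for the 10 genes.

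Ratios of a pair of genes within a library do not depend on how libraries are scaled, and 3 were examined. Mdm2 to Trp53, the balance of p53 and its inhibitor, was 0.759 and 0.497 in WT and 0.927 and 0.653 in the KO-labelled libraries. The values interleaved, and the mean was 0.628 ± 0.185 (SD, n = 2) against 0.790 ± 0.193 (SD, n = 2), with p = 0.667 by an exact two-sided permutation test of the log2 ratios. Cdkn1a to Trp53 was 8.08 and 4.63 in WT and 5.65 and 5.20 in the KO-labelled libraries (exact permutation p = 1). Cdkn1a to Cdkn1b was 15.0 and 31.2 in WT and 11.0 and 21.4 in the KO-labelled libraries (exact permutation p = 0.667). Cdkn1a thus gave more than 10 times the signal of Cdkn1b in each of the 4 libraries. With 2 libraries against 2 the smallest p this test can give is 0.333.

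**Figure D4:**
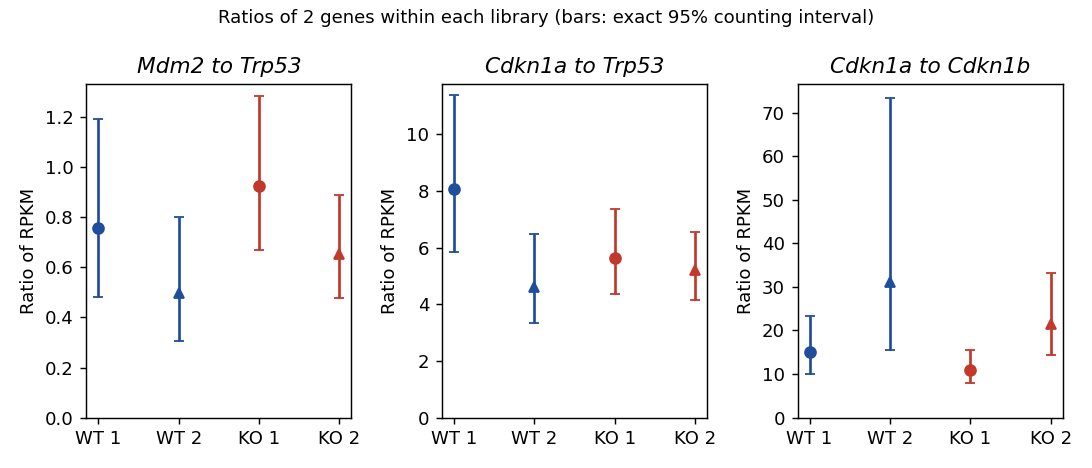
Ratio of the RPKM of 2 genes within each library, for Mdm2 to Trp53, Cdkn1a to Trp53 and Cdkn1a to Cdkn1b (vertical axes from 0). Bars are exact 95% intervals for counting error. The WT libraries (blue) and the KO-labelled libraries (red) overlap in each panel.

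The wider pathway was described by 6 lists with 81 genes, of which 68 were tested. By limma 0 of the 68 were called with adjustment, and without it 3 were higher (Rbl1, Ccna2 and Cdk2) and 1 lower (Cdkn2d), beside the 2.86% and 4.46% of all genes given above. By limma-voom 0 of 66 were called with adjustment. Without it 3 were higher and 0 lower, beside 3.48% and 6.66% of all genes, and they were Cdk1, Cdk7 and Rbl1, of which only Rbl1 is among the genes found by limma. Cdk1 and Cdk7 were named here after their values were seen. Of the genes named from the lists, Chek1, Sesn1, Ccne1 and Ccna2 had WT means under 1 RPKM, and Mdm4, Skp2 and Cdkn2d had means under 1 RPKM in the KO-labelled libraries. Each of these was tested only through the group in which it was higher, and its value, like the counts and medians it enters, is a description.

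Genes that control p53 had a median log2 difference of -0.06 over 13 tested, 6 above 0 and 7 below. They ran from Rpl5, a ribosomal protein that binds Mdm2, at -0.68 (56 and 37 reads against 63 and 31) and Mdm4, the partner of Mdm2, at -0.48, to Sirt1 at 0.71 (1.56 and 7.17 RPKM in WT, and 6.20 and 6.73 RPKM in the KO-labelled libraries, which lay between them) and the checkpoint kinase gene Chek1 at 1.01 (2 reads and 1 read against 6 and 12, a ratio of 3.76 with a counting interval of 1.097 to 19.9). Chek1 was tested only through the KO-labelled libraries and Mdm4 only through WT, so their values are not read as support for a difference. The p53 targets of growth arrest and repair had a median of 0.02 over 14 tested, 8 above 0 and 6 below. Among these Gadd45a had the lowest difference, -0.83, with 49.8 RPKM in WT library 1 and at most 14.4 RPKM in each of the other 3 libraries. Ddit4 was at -0.38, Sesn1 at 0.72 and Tigar at 0.89. None of the 14 was called in either direction.

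The p53 targets of cell death had a median of -0.24 over 10 tested, 4 above 0 and 6 below. Bbc3, the gene of the death protein PUMA, had 7.81 and 11.0 RPKM in WT and 2.08 and 6.41 RPKM in the KO-labelled libraries. Its log2 difference was -1.11 (standard error 0.53, unadjusted p 0.0813, adjusted p 0.676 by limma). Ei24 was at -0.73, Bax at 0.36 and the death receptor gene Tnfrsf10b at 0.65. The groups of Bbc3, Ei24 and Tnfrsf10b did not overlap, which is 3 of the 10 tested against 40.4% of all tested genes, and none of these 3 passed.

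The list of cyclins, CDKs and the CDC25 phosphatases that activate CDKs had a median of 0.65 over 15 tested, 11 above 0 and 4 below, beside 0.05 for all tested protein-coding genes. The 4 were Ccnd3, Cdk6, Cdc25a and Cdc25b. This was the highest median of the 6 lists, but without WT library 1 it was 0.18, below the 0.19 of the growth arrest list in that fit, and without WT library 2 it was 0.91. With the GC trend removed it was 0.36, and over the genes with at least 20 reads 0.58. Cdk2, the kinase that p21 and p27 hold back, had 1.60 and 2.05 RPKM in WT (6 and 6 reads) and 5.32 and 4.18 RPKM in the KO-labelled libraries (30 and 21 reads), a log2 difference of 1.02 (standard error 0.39, unadjusted p 0.0408, adjusted p 0.672 by limma). Its partner Ccna2, the cyclin of S phase, was read 0 and 3 times in WT against 14 and 15 times in the KO-labelled libraries, a log2 difference of 1.69 (standard error 0.61, unadjusted p 0.0334, adjusted p 0.672 by limma). Over summed reads the ratio of Ccna2 was 6.05, with a counting interval of 1.88 to 31.1. Ccne1 had 1 read in WT and 10 in the KO-labelled libraries, a ratio of 6.26 with a counting interval of 0.891 to 271.8. Ccna2 and Ccne1 were tested only through the KO-labelled libraries, where they were higher. The p of Ccna2 and the intervals of both are thus not read as support for a difference, and both enter the counts and median of the list. In log2 difference Cdc25b was at -0.34 and Ccnd3, a D-type cyclin gene, at -0.58.

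The RB family and E2F genes had a median of -0.19 over 9 tested, 4 above 0 and 5 below. Rbl1, the relative of Rb1 that codes for p107, had 1.38 and 2.13 RPKM in WT (5 and 6 reads) and 5.52 and 4.54 RPKM in the KO-labelled libraries (30 and 22 reads). Its log2 difference was 1.14 (standard error 0.40, unadjusted p 0.0294, adjusted p 0.672 by limma). E2f5 was at -0.91, with 15.5 RPKM in WT library 2 and at most 3.71 RPKM in each of the other 3 libraries, and its groups overlapped. E2f4 was at -0.75 and E2f3 at 0.29. In the list of Cdkn2d, the CDK-associated phosphatase gene Cdkn3 and genes that turn p27 over, the median was -0.10 over 7 tested, 3 above 0 and 4 below. Skp2, which recognises p27 for degradation, was at -0.84 from 27 reads, Cul1 at 0.42 and Cks1b, the cofactor of Skp2, at 1.15 from 24 reads.

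**Figure D5:**
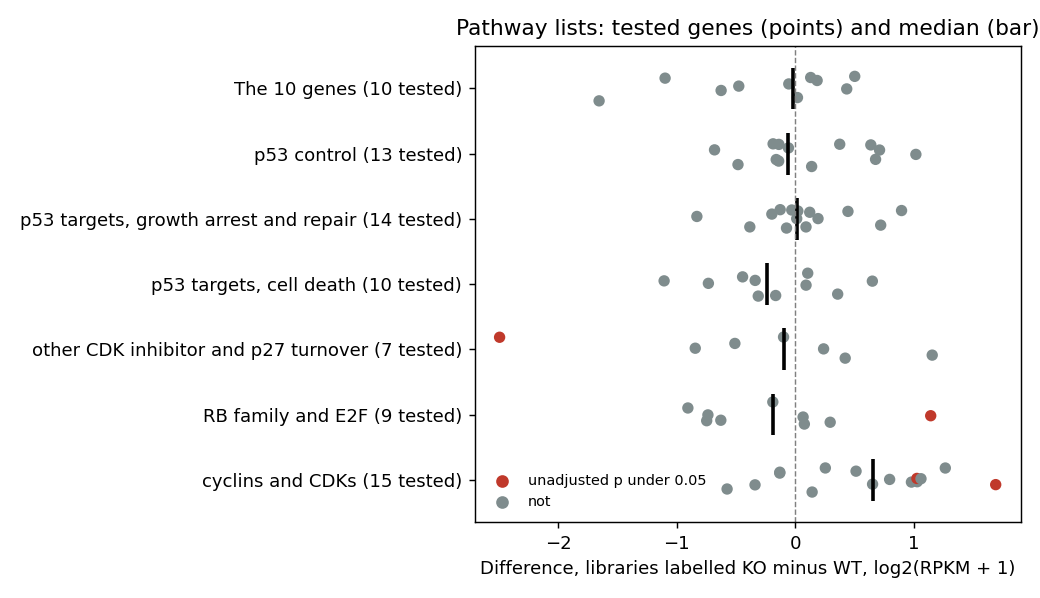
Difference between the KO-labelled libraries and WT for the tested genes of the 10 and of the 6 pathway lists (points, log2(RPKM + 1) scale), with the median of each list as a bar and the median of all tested genes as a dashed line. The point of Cdkn2a among the 10 rests on 3 reads. Red points have an unadjusted p under 0.05. The list of cyclins and CDKs, which holds CDC25 genes too, has the highest median, 0.65, and Cdkn2d is the lowest point.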

How the data were processed

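Ribosome-protected fragments were sequenced in 4 libraries, 2 WT and 2 labelled KO, grouped by sample title. The methods name removal of rRNA and tRNA reads, TopHat2 and HTSeq with an Ensembl annotation, and the submitters' processing notes add mm10. Tool versions are not given in the sources used here. The authors deposited RPKM values per library and the gene length, named in the file header. Multiplied by length, 100% of the values above 0 were whole reads (within 0.05 reads) times a constant of the library, and these reads were recovered. The library sizes behind the RPKM were 602863 and 471136 (WT) and 906990 and 807705 (KO), not the read totals.

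The test was limma 3.58.1 in R 4.3.3 (lmFit, eBayes with trend=TRUE) on log2(RPKM + 1), a scale that understates the change of weakly read genes, over the 11363 genes whose mean reached 1 RPKM, with Benjamini-Hochberg adjustment. Exact tests and intervals used scipy 1.17.1. The script was tested on simulated data. There the fit called few of the changed genes and more unchanged ones, the fits with a library left out or the block called none, and limma-voom and the fit with at least 20 reads called most of the changed genes. In the simulation only well read genes were changed, by a log2 difference of 2 in either direction, and most of the 10 genes have fewer reads. Its outcome thus does not show that any of these fits would find smaller changes or changes in weakly read genes. Counting error alone enters the intervals of read ratios and the limit of 3 reads, as PCR copies are not independent. Coding sequences were the longest complete ones of GENCODE M21, to which 99.8% of identifiers matched. The 10 genes, the lists and the rule for named genes (the 10, the lowest 2 and highest 2 of each list and any called) were chosen with earlier results of these data known. Cdk1, Cdk2, Cdk6, Cdk7, Cdc25a and Cdkn3 fall outside the rule and were named after their values were seen. The list of cyclins and CDKs includes CDC25 phosphatases, and that of p27 turnover includes Cdkn3.

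Alternatives were a pseudocount of 0.1, other filters and scalings, protein-coding genes only, trend=FALSE, limma-voom, removal of the trend on coding GC, a replicate block and leaving out each library. Each library was set against its group mean, and the deviations of libraries with the same number correlated at 0.0575.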

Additional observations from a re-analysis of the deposited data

How the results depend on the processing

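None of the 10 genes reached an adjusted p under 0.05 in any fit, those with a library left out included, where a lone library is assumed to vary like the other group. The fits with a library left out or the block called no gene on simulated data, so their adjusted p says nothing about stability. Adjusted p lay between 0.292 (Mdm2, libraries scaled to the same total of reads) and 1.00 (Ccng1). The scaling to the same total of reads, the minimum of 20 reads and the coding length were chosen after the data were seen. Without adjustment, Mdm2 passed at the same total of reads, where 1693 of 11494 genes passed as higher. Cdkn2c passed with the block (509 of 11363 genes lower) and with the GC trend removed (332 of 9841). It also passed with protein-coding genes only (417 of 9877) and the same sum of RPKM over them (620 of 11411). Differences of Mdm2, Cdkn1c and Cdkn2c kept their sign in every fit that tested them. Cdkn1c and Cdkn2c entered these fits through their level in WT, where they were higher. Their sign and the passes of Cdkn2c are thus not read as support for a difference. The sign turned for Cdkn1a at the same sum of RPKM over protein-coding genes (-0.13), for Cdkn2b and Ccng1 at the same sum of RPKM (0.46 and 0.96) and at the same total of reads (0.054 and 0.53), for Cdkn2b with the GC trend removed (0.082) and for Rb1 in that fit (-0.25). These 2 scalings moved the median of all tested genes to 0.85 and 0.49, so that Cdkn2b stayed below and Ccng1 near it. With libraries left out, Trp53 ranged from -0.080 to 0.45, Cdkn1a from -0.20 to 0.23, Cdkn1b from -0.14 to 1.01, Cdkn2b from -0.75 to -0.20, Cdkn1c from -2.04 to -0.16, Ccng1 from -0.18 to 0.069 and Rb1 from -0.26 to 0.51. The fitted value of Cdkn2a, from -1.73 to 0.48, rests on 3 reads and the pseudocount and gives no fold or direction. The log2 difference of the ratio ranged from 0.036 to 0.65 for Mdm2 to Trp53, from -0.58 to 0.23 for Cdkn1a to Trp53 and from -1.02 to 0.032 for Cdkn1a to Cdkn1b. The cause of these changes was not tested.

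The 11 genes lower and 1 higher with adjustment became 0 and 0 with a minimum mean of 5 RPKM, all genes above 0, a pseudocount of 0.1, the same total of reads, protein-coding genes only, trend=FALSE, the GC trend removed, at least 20 reads and the replicate block, and 0 and 0 without each library. Limma-voom gave 39 lower and 0 higher, and the same sum of RPKM 7 higher. The samples share only a number, and under the replicate block 509 genes passed without adjustment as lower and 318 as higher, in place of 507 and 325. Cdkn2c was among the 509 and had an adjusted p of 0.639 by limma. Without adjustment a minimum mean of 5 RPKM left 327 and 178, against 100 and 1648 at the same sum of RPKM and 170 and 1693 at the same total of reads, and 332 lower with the GC trend removed. With a library left out they ranged from 225 to 791 lower and from 205 to 809 higher, the highest of both without WT library 2 and the lowest without KO library 1.

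List medians at the same sum of RPKM and the same total of reads were 0.96 and 0.52 (p53 control), 0.88 and 0.49 (growth arrest), 0.73 and 0.32 (cell death), 0.95 and 0.50 (p27 turnover), 0.59 and 0.32 (RB family and E2F) and 1.56 and 1.18 (cyclins and CDKs). A minimum mean of 5 RPKM gave 0.089 for cell death, 0.33 for p27 turnover and -0.75 for the RB family. These medians cover only the genes of each list that reached that mean, and that of the RB family is the value of E2f4. Limma-voom gave 0.29 for p27 turnover, and removal of the GC trend -0.49 for it and -0.45 for the RB family. Without a library the medians ranged from -0.18 to 0.00042 (cell death), -0.67 to -0.074 (RB family), 0.18 to 0.91 (cyclins and CDKs), -0.13 to 0.30 (p53 control), -0.21 to 0.19 (growth arrest) and -0.23 to 0.12 (p27 turnover).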
